A study of Mus musculus with 15 samples.

Results

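57SCLC is a mouse small cell lung carcinoma (SCLC) cell line, and this account compares the transcriptome of the subcutaneous tumors it formed (57SCLC_allo, tumors 275, 316 and 317) with that of the same line in culture (57SCLC_cell, flasks A, B and C), over all genes. The samples were taken by their group labels, 6 of the 15 of the series, and 17078 of the 55359 annotated genes were tested, those that reached 10 normalized counts in 3 or more of the 6 samples. The line came from a lung tumor of a QKO mouse, which carries floxed Rb1 and Trp53 and null Rbl1 among its alleles, after an adenovirus with Cre under the keratin 5 promoter was given into the trachea, so both groups carry the same deletions. The cells grew as floating aggregates in RPMI with 10% fetal calf serum, insulin, transferrin and selenium, EGF and hydrocortisone, and were sampled at passage 11 from 3 flasks. For the tumors, cells of passage 11 in a 1:1 mix of medium and Matrigel were injected under the skin of the flanks of syngeneic, immunocompetent QKO mice, whose own cells hold the unrecombined floxed alleles and null Rbl1. The ages of the mice and the time of growth of each tumor are not given in the sources used here. A single line was used, the flasks are cultures of that line and each tumor carries a number of its own, so p-values describe the spread between these 3 flasks and these 3 tumors.

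SCLC is a neuroendocrine cancer: its cells make dense-core granules, peptide hormones and synaptic vesicle proteins, and their identity is held by neuronal and endocrine transcription factors. Notch signaling and the repressor REST are known to oppose this state, and Id proteins bind and block basic helix-loop-helix factors. A tumor grown in a mouse differs from a flask in that it recruits fibroblasts, vessels and leukocytes, draws oxygen and nutrients from blood, and no longer receives the growth factors and steroid of the medium. Host and tumor cells were both mouse and were sequenced together, so a read cannot be given to either, and in bulk RNA fewer cells of a type and less RNA per cell cannot be told apart.

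The libraries held 41452513, 37368046 and 44876572 reads on genes in flasks A, B and C and 9480244, 16847847 and 20378892 in tumors 275, 316 and 317, so 3 reads correspond to 1.56 to 1.81 normalized counts in a flask and to 7.18, 4.25 and 3.40 in the tumors. Flasks A and B were close to each other, with a chi-square of 2.80 for each degree of freedom over the 16788 genes that passed a read minimum in that pair. Flask C stood apart from both (144 and 127, over 17129 and 17036 genes). Of the 12137 genes that reached 100 normalized counts in a flask, 374 were over 2-fold higher and 35 over 2-fold lower in flask C than the mean of A and B. Counts are therefore given with and without flask C where they differ in a way that touches a result. Some widely expressed genes, B2m and Hif1a among them, are listed at 0 in all 6 samples and gave no value. Both are also at 0 in the cultures and tumors of 46LCNEC, the other line of the series, so these zeros are not particular to 57SCLC.

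The labelled cell type held against its markers in both groups. Chga, the granule protein chromogranin A, was at 9885, 9737 and 8951 in the flasks and 10973, 12847 and 11748 in the tumors, Ncam1 at 4598, 4291 and 6449 in the flasks and 5647, 6039 and 6376 in the tumors, and Nkx2-1, the lung lineage factor also called TTF-1, at 34869, 33031 and 29464 in the flasks and 24223, 28338 and 26185 in the tumors. Epcam, an epithelial surface protein, was at 12782, 12842 and 13779.8 in the flasks and 14296, 13751 and 13007 in the tumors. Krt5, the keratin whose promoter drove Cre, had 1 read in tumor 317 and none in the other 5 samples. Of the deleted tumor suppressors, Trp53 was at 1062, 1006 and 923 in the flasks and 1183, 1176 and 1016 in the tumors, Rbl1 at 2730.2, 2747 and 3166 in the flasks and 2403, 2831 and 2560.1 in the tumors and Rb1 at 229, 236 and 777 in the flasks and 244, 469 and 411 in the tumors. None of these 3 passed the test. Counts per gene do not show the deleted exons, so these levels check neither the deletion nor the share of host cells. The muscle, skin and Schwann cell lists, for tissue around an injection site, are described with the host cells.

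In total 2451 genes (14.4% of those tested) were higher and 391 (2.29%) lower in the tumors, at an adjusted p of at most 0.01 in limma and a difference of at least 1 on the log2(normalized count + 1) scale. Without flask C these were 2557 (15.1%) and 351 (2.08%) of 16892 tested, 2347 and 290 genes were called both ways, and none turned direction. The median log2 fold change of all tested genes was 0.0044, that of the genes that rose was 3.44 and that of the genes that fell was -1.50. The rises held many genes that the flasks lacked. Of 629 tested genes at or under 3 reads in every flask, 628 were called higher, which the filter itself brings about, since such genes enter the test only through the tumors. Of the 11549 tested genes that reached 100 normalized counts in every flask, 440 rose and 274 fell, and 181 of the latter still had at least 100 in every tumor. Leaving out 1 tumor gave 954 to 1179 rises, since 2 tumors cannot pass a filter of 3 samples for genes the flasks lack, and with a filter of 2 samples, chosen after seeing the data, 2118 to 2440. The same step lowered the number of rises in many lists described below under the filter of 3, to 8 for fibroblast, 10 for endothelial, 7 for pericyte, 11 for macrophage, 2 for class II and 1 for T and NK cell markers, 0 for B and plasma cell, for neutrophil and mast cell and for metalloproteinase and Timp genes, 3 for chemokines, 8 for interferon-stimulated genes, 4 for integrins, 3 for adhesion, 6 for ERK feedback, 5 for TGF-beta and BMP, 2 for Wnt, 6 for axon guidance, 2 for channel genes and 1 for neuroendocrine and subtype factors at the lowest, and with the filter of 2 each of these stayed within 1.5 times its value. No called gene had overlapping flask and tumor values. Counts of called members in the lists below stand against these shares of 14.4% higher and 2.29% lower among all tested genes. All log2 fold changes below are tumor minus flask with their standard error, n = 3 flasks and 3 tumors, and levels are normalized counts given in the order A, B, C and 275, 316, 317.

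**Figure D1:**
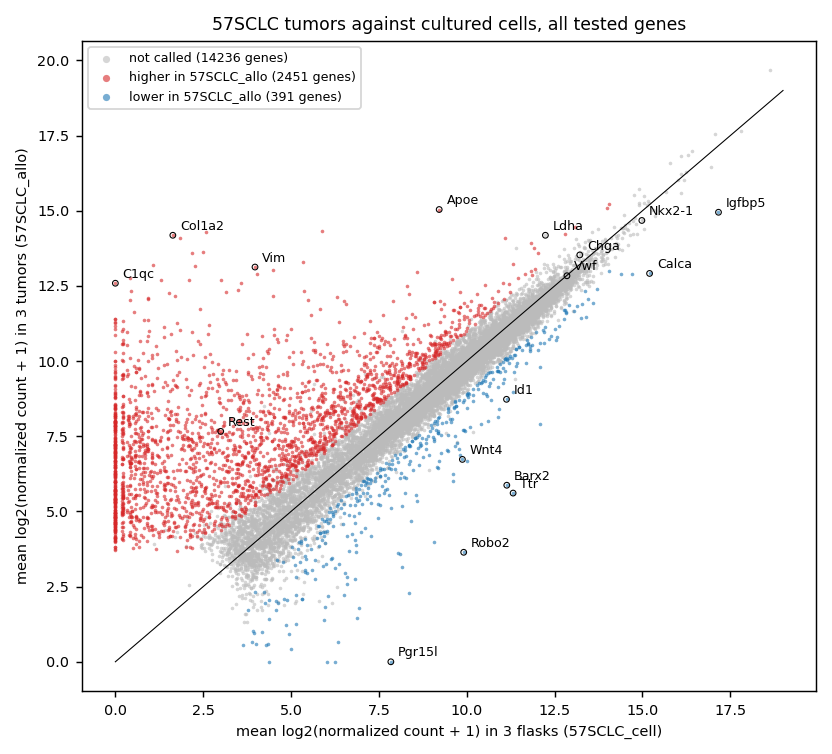
Mean log2(normalized count + 1) of each tested gene in the 3 flasks (x axis) and the 3 tumors (y axis), with the line of equal level. Red points are the 2451 genes called higher in 57SCLC_allo, blue points the 391 called lower and grey points the rest. Red points reach far above the line where the flask level is near 0, and blue points lie nearer to it.

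Genes of fibroblasts and their matrix were prominent among the rises. Type I collagen genes Col1a1 and Col1a2 were at 2.18, 1.81 and 4.17 and 2.18, 3.62 and 1.04 in the flasks and at 17116, 14152 and 22517 and 17788, 15174 and 23909.7 in the tumors. Col3a1, of the fibrillar type III collagen, went from 1.09, 1.2 and 1.04 to 8527, 8293 and 11840.3, Sparc, a matrix-binding protein, from 9.27, 7.24 and 1.56 to 22078, 14838 and 24061, and Fn1, fibronectin, from 6.55, 6.63 and 2.08 to 12424, 10446 and 15644. Postn, periostin, had 4 or fewer reads in each flask and was at 3138, 2668 and 3901 in the tumors. Serpinh1, a collagen chaperone, was at 1.64, 0.603 and 2.61 in the flasks and 7756, 5122 and 7133 in the tumors, and Bgn, a matrix proteoglycan, at 3.82, 4.22 and 2.61 in the flasks and 14317, 8622 and 15776 in the tumors. In every case the lowest tumor was far above the highest flask. Of 27 listed fibroblast and matrix markers 26 were tested and 25 rose, 9 of them at or under 3 reads in every flask. The median log2 fold change of the list was 8.50 (8.32 with the genes absent from flasks set to their lower bound), against 0.0044 over all genes. The summed level of the list was 1192 to 1416 in the flasks and 91356 to 144687 in the tumors. The exception was Fbln1, fibulin-1, at 648, 619 and 765 in the flasks and 1384, 1179 and 1207 in the tumors, a difference of 0.89 ± 0.11 (adjusted p = 4.0e-04) that missed the 2-fold limit.

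Vessel genes rose too. Cdh5, the cadherin of endothelial junctions, was at 1.09, 0.603 and 1.56 in the flasks and 1204, 927 and 1197 in the tumors and rose by 9.07 ± 0.26 (adjusted p = 2.8e-07). Pecam1 was at 35.5, 35 and 42.7 in the flasks and 1508, 1011 and 1346 in the tumors, and Flt1, a VEGF receptor, at 7.09, 14.5 and 13 in the flasks and 2162, 1005 and 1576 in the tumors. Tie1, Emcn and Robo4 had no read in any flask and were at 294, 269 and 272, 213, 119 and 152 and 242, 181 and 280.3 in the tumors, at least 167-fold, 96.6-fold and 140.4-fold higher than a flask level of 3 reads per library. Of 22 endothelial markers tested 21 rose, 9 of them at or under 3 reads in every flask, with a median of 5.49 (5.23 with bounds). The remaining one was Vwf, von Willebrand factor, which the cultured cells already held at 7072, 7389 and 7724 and which was at 6628, 8295 and 7134 in the tumors (-0.014 ± 0.10, adjusted p = 0.93). The sum of the list, 7373 to 8054 in flasks and 15933 to 17992 in tumors, was mostly Vwf in the flasks. Of 13 pericyte and smooth muscle markers 12 rose, 3 of them at or under 3 reads in every flask, with a median of 4.31. Rgs5, a pericyte regulator of G protein signaling, had no flask read and was at 2581, 1971 and 2909.6, and Acta2, smooth muscle actin, had 1 flask read and was at 2250.2, 1686 and 2617 in the tumors. Pdgfrb, the pericyte growth factor receptor, was at 3.27, 2.41 and 1.56 in the flasks and 3251, 1656 and 2855 in the tumors. Tagln, listed with these markers, was low in both, at 50.7, 59.7 and 54.7 in the flasks and 45.5, 53.8 and 67 in the tumors. Of 13 basement membrane genes 11 rose, 2 of them at or under 3 reads in every flask. Hspg2, perlecan, went from 63.3, 76 and 54.2 to 1441, 1233 and 1914 and Lama4, a laminin chain of vessel walls, from 2.18, 6.63 and 10.4 to 679.8, 449 and 799. Lamc1 and Lama5, which the flasks already expressed, were at 1710.1, 1733 and 1549 in the flasks and 2528, 2694 and 2989 in the tumors and at 1038, 993 and 1328 in the flasks and 1623, 1687 and 1689.7 in the tumors, and missed the 2-fold limit.

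Macrophage genes rose together. C1qc, a chain of complement C1q made by macrophages, had no read in 3 flasks and was at 8172, 4006 and 7143 in the tumors, at least 3857-fold higher. Lyz2, lysozyme, was at 18.5, 18.1 and 10.4 in the flasks and 6985, 6192 and 10541 in the tumors, Csf1r, the receptor for the macrophage growth factor, at 2.18, 4.82 and 7.29 in the flasks and 1956, 1055 and 1718 in the tumors, and Mrc1 at 20.7, 16.9 and 19.8 in the flasks and 1903, 767 and 1517 in the tumors. Spp1, osteopontin, which macrophages and other cells make, had 2 reads in the flasks together and was at 6435, 5191 and 10312 in the tumors. All 24 tested of 26 listed macrophage and monocyte markers rose, 9 of them at or under 3 reads in every flask, with a median of 7.55 (7.32 with bounds) and a summed level of 1257 to 1294 in flasks and 52455 to 102749 in tumors. Tumor 316 was the lowest of the 3 for C1qc, Csf1r and Mrc1. Of 12 tested genes of MHC class II and dendritic cells 11 rose, 4 of them at or under 3 reads in every flask. Cd74, the invariant chain, went from 6.55, 3.62 and 13.5 to 10705, 4074 and 6742 and H2-Ab1, a class II chain, from at most 1 read in a flask to 3849, 1759.6 and 2549.8. Ciita, the class II transactivator, was at 26.7, 19.9 and 25.5 in the flasks and 52.7, 51 and 38.6 in the tumors and did not pass the test.

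T cell genes were called at lower levels. Cd3g and Cd3e, chains of the T cell receptor complex, had no flask read and were at 33.5, 24.1 and 35.2 and at 26.3, 17 and 19.3. Cd8a was at 38.3, 32.6 and 42 and Cd4, which some dendritic cells also express, at 229.8, 132 and 158 in the tumors. Gzmb, the cytotoxic granule protease granzyme B, was at 52.7, 15.6 and 23.8, with no flask read. Of 23 listed T and NK cell markers 14 reached the level for testing and all 14 were called higher, 9 of them at or under 3 reads in every flask, so that count follows from the filter. Their sum was 26.2 to 47.4 in flasks and 517 to 857 in tumors. Genes of B and plasma cells were found as well. Ighm was at 3459, 1593 and 1162 and Jchain, the chain that joins IgA and IgM, at 6372, 1213 and 894. Igha was at 3797, 4911 and 3933 and Ighg2b at 1606, 1854 and 6693 in the tumors, against at most 1 read in a flask. Constant region genes are close in sequence, and how reads that map to several genes were counted is not given in the sources used here, so the split among them is uncertain. Of 13 neutrophil and mast cell markers 4 were tested and called, Mmp8 at 103, 67.9 and 148, Csf3r at 215, 46.7 and 81.7, Tpsb2 at 43.1, 52.4 and 32.9 and Cma1 at 12, 14.2 and 10.2. All 4 were at or under 3 reads in every flask, so this count too follows from the filter. Hemoglobin Hbb-bs was at 1853, 268 and 203 with no flask read.

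Marker sums of other tissues at the injection site lay near the flask sums. In the adipocyte and Schwann lists the flask sums were mostly Pnpla2 and Mbp, which the cultured cells expressed. Those sums therefore cannot show whether host fat or nerve was present. The summed level of 14 skeletal muscle markers was 162 to 188 in flasks and 198 to 244 in tumors, and none of the 5 tested was called. The keratinocyte and skin list summed to 151 to 179 and 128 to 160, and Krt17 alone of its 2 tested genes rose (1.09, 0 and 1.56 in the flasks and 38.3, 43.9 and 51.1 in the tumors). In the adipocyte list Fabp4, which endothelial cells and macrophages also make, rose to 235, 194 and 309, and Pparg and Pnpla2 were at 168, 136 and 203 in the flasks and 192, 177 and 246 in the tumors and at 2436, 2466 and 1521 in the flasks and 2901, 2446 and 2272 in the tumors. Of 6 tested Schwann cell genes 2 rose, Pmp22 (113, 120 and 127 in the flasks and 788, 613 and 805 in the tumors) among them, and Mbp, already in the cultured cells, was at 9089, 8822 and 7289 in the flasks and 5647, 6958 and 6455 in the tumors. Of 6 tested genes of alveolar, club and ciliated cells Hopx rose (2.18, 1.2 and 0.521 in the flasks and 55.1, 32.6 and 36.3 in the tumors).

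**Figure D2:**
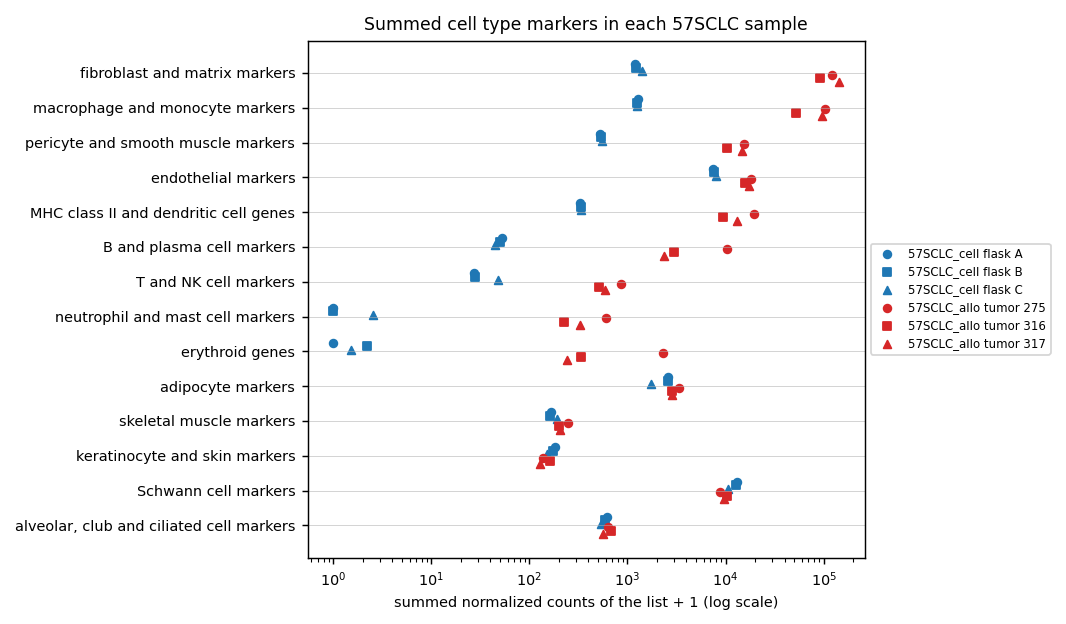
Summed normalized counts plus 1 (log x axis) of the marker genes of 14 cell types, 1 row per list, in 3 flasks (blue) and 3 tumors (red), with a symbol per sample. Fibroblast, macrophage, pericyte, class II, plasma cell and T cell sums lie far apart between the groups, whereas adipocyte, muscle, skin, Schwann and lung sums lie close together. Adipocyte and muscle sums are still higher, and Schwann sums lower, in every tumor than in every flask. The adipocyte and Schwann sums are mostly Pnpla2 and Mbp, which the cultured cells expressed.

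Matrix remodeling genes rose with the host markers. Mmp12, the macrophage metalloelastase, was at 0.545, 1.2 and 1.04 in the flasks and 4426, 3069 and 5722 in the tumors, Mmp13, a collagenase, at 1.09, 2.41 and 0 in the flasks and 2437, 1542 and 2284 in the tumors, and Mmp14, a membrane-bound protease, at 5.45, 3.62 and 1.56 in the flasks and 7609.9, 5091 and 7799 in the tumors. Of 12 tested metalloproteinase and Timp genes 7 rose and none fell, and 3 of the 12 were at or under 3 reads in every flask. Mmp15, Mmp24 and Timp2, which the flasks expressed, did not pass the test. Among 13 integrins tested 8 rose, the most in Itga1, a collagen-binding chain with no flask read (1195, 661 and 1041 in tumors), and Itga5, the fibronectin-binding chain (3.27, 3.62 and 2.61 in the flasks and 1223, 818 and 1238 in the tumors). Itga2, another collagen-binding chain, was at 2.18, 1.81 and 1.56 in the flasks and 79, 63.7 and 65.8 in the tumors and Itga7, a laminin-binding chain, at 2.73, 3.02 and 4.69 in the flasks and 103, 112 and 103 in the tumors. Itga9 was at 134, 122 and 270.4 in the flasks and 1072, 2915 and 1668 in the tumors, with tumor 316 the highest. Itgb3 and Itgav, which together form a receptor for RGD-containing matrix proteins, rose by 3.08 ± 0.19 (adjusted p = 5.8e-06) and 2.79 ± 0.22 (adjusted p = 2.5e-05). Itgb1 was at 7362, 7191 and 7574 in the flasks and 10243, 10287 and 10504 in the tumors (0.49 ± 0.076, adjusted p = 0.0013) and Itga6 and Itga3, laminin-binding chains, at 3316, 3316 and 3995 in the flasks and 2248, 2799 and 2866 in the tumors and at 3421, 3196 and 2294 in the flasks and 2561, 2613 and 2713 in the tumors.

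Of MHC class I presentation genes 8 of 13 tested, and of interferon-stimulated genes 18 of 26, were higher in the tumors. H2-K1 and H2-D1, the classical class I heavy chains, went from 786, 871 and 1042 to 4436, 3145 and 3351 and from 2639, 2577 and 2386 to 12819, 7138 and 9679.6, log2 fold changes of 2.01 ± 0.15 (adjusted p = 2.0e-05) and 1.92 ± 0.19 (adjusted p = 8.5e-05). Tap1, the peptide transporter, was at 143, 137 and 123 in the flasks and 778, 488 and 586 in the tumors (2.17 ± 0.18, adjusted p = 3.6e-05), and Psmb8 and Psmb9, subunits of the immunoproteasome, at 34.9, 28.9 and 20.8 in the flasks and 189, 123 and 180.4 in the tumors and at 42.5, 30.2 and 37 in the flasks and 354, 173 and 245 in the tumors. Nlrc5, the class I transactivator, went from 8.73, 8.44 and 16.2 to 589, 204 and 376 (4.94 ± 0.41, adjusted p = 3.4e-05). Of 13 tested class I presentation genes 8 rose and none fell, with a median of 1.92. The general chaperones Calr, Canx and Pdia3 did not pass, with differences of 0.057 ± 0.13, -0.13 ± 0.11 and -0.044 ± 0.098. H2 genes are close in sequence, which leaves their individual levels uncertain.

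Of 26 tested interferon-stimulated genes 18 rose and 1 fell, 6 of them at or under 3 reads in every flask, with a median of 1.89. Gbp2, a guanylate-binding protein, had no flask read and was at 737, 331 and 524, at least 318-fold higher. Iigp1, an immunity-related GTPase, had 1 flask read and was at 1518, 684 and 1122. Zbp1, a sensor of left-handed nucleic acid, was at 2.18, 0.603 and 3.65 in the flasks and 426, 176 and 255 in the tumors, and Oas1a at 1.64, 0.603 and 1.04 in the flasks and 148, 90.6 and 137 in the tumors. Members that the flasks held at higher levels moved less. Stat2, a transducer of interferon signals, was at 891, 869 and 1034 in the flasks and 1249.6, 872 and 1161 in the tumors and Ifih1, a cytoplasmic RNA sensor, at 617, 621 and 399 in the flasks and 436, 583 and 534 in the tumors, and neither passed. The member that fell was Usp18, the protease that removes ISG15 and dampens interferon signaling, at 124, 119 and 145 in the flasks and 43.1, 31.1 and 37.4 in the tumors (-1.78 ± 0.21, adjusted p = 2.7e-04, or 0.0444 in a fit over all 15 samples), named after its values were seen. Macrophage and T cell markers moved with these genes, tumor 275 being the highest and 316 the lowest for Nlrc5 and Gbp2, and the part of host cells in these rises was not tested. Of 14 tested chemokines 13 rose, 9 of them at or under 3 reads in every flask. Cxcl9, an interferon-gamma-induced ligand that draws T cells, was at 1101, 483 and 868, Ccl8 at 2784, 634 and 1144 and Cxcl14 at 771, 949.9 and 1439, all with no flask read. Cx3cl1 was at 274, 285 and 153 in the flasks and 359, 345 and 351 in the tumors and did not pass.

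Promoter windows of 4 called interferon-stimulated genes are shown because they hold 2 or more copies of the interferon-stimulated response element, GAAA followed by any 2 bases and a second GAAA, searched on both strands in the 250 bases before the RefSeq start. The capitals mark the matches, which overlap each other in Gbp3, Oas1a and Isg15. Windows were taken from RefSeq sequences of build GRCm38.p6 and placed in GRCm39 by exact match.
Gbp3 (chr3:142265555-142265804, plus strand): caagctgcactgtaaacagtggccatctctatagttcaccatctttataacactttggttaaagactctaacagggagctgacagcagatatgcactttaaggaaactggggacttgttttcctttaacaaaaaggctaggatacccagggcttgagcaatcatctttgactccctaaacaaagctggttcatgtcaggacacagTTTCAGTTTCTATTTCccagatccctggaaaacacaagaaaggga
Oas1a (chr5:121045589-121045838, minus strand): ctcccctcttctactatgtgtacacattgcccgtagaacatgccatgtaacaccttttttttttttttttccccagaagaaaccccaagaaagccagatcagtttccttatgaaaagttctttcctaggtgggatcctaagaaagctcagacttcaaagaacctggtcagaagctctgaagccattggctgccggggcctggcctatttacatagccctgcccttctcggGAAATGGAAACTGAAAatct
Ifit3 (chr19:34560679-34560928, plus strand): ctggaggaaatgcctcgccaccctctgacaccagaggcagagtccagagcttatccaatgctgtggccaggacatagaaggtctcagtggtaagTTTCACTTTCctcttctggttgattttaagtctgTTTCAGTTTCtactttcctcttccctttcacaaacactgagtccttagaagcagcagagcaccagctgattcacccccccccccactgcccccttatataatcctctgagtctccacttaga
Isg15 (chr4:156285276-156285525, minus strand): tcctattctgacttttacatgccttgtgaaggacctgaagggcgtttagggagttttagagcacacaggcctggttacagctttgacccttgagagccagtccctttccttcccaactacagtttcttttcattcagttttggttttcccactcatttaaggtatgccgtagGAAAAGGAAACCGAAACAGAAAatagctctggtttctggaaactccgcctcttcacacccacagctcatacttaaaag
Gbp3 was at 1.09, 0 and 0 in the flasks and 330.3, 191 and 291 in the tumors, Ifit3 at 0.545, 0 and 1.04 in the flasks and 79, 56.6 and 94.2 in the tumors and Isg15, the ubiquitin-like modifier, at 7.09, 1.81 and 5.21 in the flasks and 175, 130.2 and 225 in the tumors. Of the 20 tested list members with a window in the table, 10 (50%) held a match, 8 of the 15 that rose and 2 of the 5 others, against 3.46% of the 27025 genes with a window. The list is made of known interferon targets, and a match is a description of the sequence and not a site shown to be used.

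Neuroendocrine granule genes were called in both directions. Of 25 tested granule and peptide genes 3 rose, against 14.4% of all genes tested, 3 fell, against 2.29%, and 19 were not called, with a median of -0.055. Calca, which encodes calcitonin and CGRP (chr7:114230712-114235592, minus strand in GRCm39), was at 35267, 35302 and 43053 in the flasks and 9013, 7477 and 6835 in the tumors and fell by 2.29 on the log2 scale (SE 0.14, adjusted p = 5.1e-06). Pcsk1, the prohormone convertase, was at 10067, 10072 and 9620.2 in the flasks and 3198, 4585 and 3884 in the tumors (-1.37 ± 0.13, adjusted p = 6.8e-05) and Resp18, a granule protein, at 672, 710.5 and 938 in the flasks and 273, 253 and 275 in the tumors (-1.52 ± 0.14, adjusted p = 7.1e-05). Ddc, the enzyme that makes dopamine and serotonin from their precursors, was at 3024, 3063 and 3641 in the flasks and 7337, 7610.3 and 7892 in the tumors (1.24 ± 0.095, adjusted p = 2.1e-05), Eno2, neuron-specific enolase, at 716, 674 and 1137 in the flasks and 2176, 1899.8 and 2443 in the tumors (1.40 ± 0.20, adjusted p = 7.4e-04), and Vgf, a neuropeptide precursor, at 782, 774 and 764 in the flasks and 1307, 1805 and 1995 in the tumors (1.11 ± 0.15, adjusted p = 5.6e-04). Calca, Pcsk1, Resp18 and Vgf were not called in a fit over all 15 samples, which gave adjusted p-values of 0.0188, 0.183, 0.0114 and 0.0653 at the same fold changes. Eno2 is also a glycolytic enzyme, and its flask C value was above those of A and B. Chga, Uchl1, Ncam1 and Syt1, the vesicle calcium sensor, differed by 0.31 ± 0.095, -0.21 ± 0.15, 0.26 ± 0.15 and 0.069 ± 0.15 and were not called. None of 15 neuronal RNA-binding and splicing genes was called (3 rose without flask C, with a list median of 0.12). Elavl3 was at 14210.2, 13280.4 and 9004 in the flasks and 11689, 11894 and 11726 in the tumors and Srrm3, which drives neuronal microexon splicing, at 7459, 7375 and 6842 in the flasks and 4062, 4371 and 4505 in the tumors (-0.74 ± 0.081, adjusted p = 1.7e-04). Of 12 surface antigens used as drug targets 1 rose, Fgfr1 (5.45, 3.02 and 6.77 in the flasks and 1317, 780 and 1337 in the tumors), a receptor that fibroblasts also carry, and Cadm1 was at 4918, 4922 and 7088 in the flasks and 8103, 10419 and 10382 in the tumors (0.78 ± 0.17, adjusted p = 0.0066).

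Among 22 tested neuroendocrine and subtype transcription factors 7 fell, against 2.29% of all genes tested, and 3 rose, against 14.4%, with a median of -0.45. All 4 Id genes fell. Id1 (chr2:152566218-152579544, plus strand) was at 2031, 2072 and 2678 in the flasks and 553, 365 and 376 in the tumors (-2.40 ± 0.18, adjusted p = 1.8e-05), Id2 at 5788, 5638 and 6598 in the flasks and 2169, 1506 and 1390.1 in the tumors (-1.86 ± 0.16, adjusted p = 4.5e-05), Id4 at 4561, 4231 and 5460.1 in the flasks and 1637, 1502 and 1506 in the tumors (-1.61 ± 0.11, adjusted p = 8.8e-06) and Id3, named after its values were seen, at 1995, 1906 and 1746 in the flasks and 959.9, 664 and 854 in the tumors (-1.20 ± 0.14, adjusted p = 2.3e-04). Every tumor lay below every flask for each of them, as for all genes called lower. Id genes are known targets of BMP signaling, whose genes are described below, and whether it had a part in these falls was not tested. St18, a neural zinc finger factor, was at 8807, 8932 and 7904 in the flasks and 2904, 3682 and 3285 in the tumors (-1.38 ± 0.11, adjusted p = 2.1e-05, or 0.183 in the fit over all 15 samples), Pou3f4, a POU factor of neural cells, at 1218, 1134 and 828 in the flasks and 474, 450.2 and 404 in the tumors (-1.24 ± 0.15, adjusted p = 3.6e-04), and Foxa1, named after its values were seen, at 12415, 11442 and 8346 in the flasks and 4934, 5034 and 5423 in the tumors (-1.05 ± 0.15, adjusted p = 7.0e-04). Insm1, a driver of endocrine differentiation, was at 39944, 36474 and 26639 in the flasks and 18147, 27716 and 20112 in the tumors, Foxa2 at 14331, 13938 and 11074 in the flasks and 8424, 9848 and 8085 in the tumors and Nfib, an SCLC oncogene, at 10295, 9787 and 13579 in the flasks and 11174, 11692 and 12556 in the tumors. Insm1 overlapped between the groups and Nkx2-1, given above, did not, and neither was called. The 3 that rose were low in the flasks. Rest, the repressor of neuronal genes, went from 6.55, 9.05 and 5.73 to 201, 160 and 255 (4.67 ± 0.28, adjusted p = 4.9e-06), Nfia from 16.4, 17.5 and 31.3 to 225, 204 and 291 (3.45 ± 0.29, adjusted p = 3.4e-05), and En1, a homeobox gene, from 2 reads in the flasks together to 115, 79.3 and 111. Host fibroblasts, vessels and macrophages are known to express Rest, and what part of its rise came from them was not tested.

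Notch genes rose in part. Notch2 went from 12.5, 10.9 and 10.9 to 428, 349.7 and 424 (5.01 ± 0.20, adjusted p = 6.5e-07), Notch1 from 105, 110.4 and 33.3 to 632, 437 and 561 (2.86 ± 0.43, adjusted p = 0.001) and Notch3, a receptor of pericytes, from 137, 124 and 131 to 519, 519.5 and 569 (2.03 ± 0.12, adjusted p = 5.2e-06). The target Heyl, also a vessel wall gene, was at 12, 16.9 and 18.2 in the flasks and 679.8, 333 and 471 in the tumors (4.85 ± 0.29, adjusted p = 5.5e-06). The ligand Dll4, of sprouting endothelium, was at 195, 192 and 114 in the flasks and 2044, 1557 and 1706 in the tumors (3.43 ± 0.22, adjusted p = 6.5e-06). Dll3, the inhibitory ligand found on SCLC cells, was at 812, 750.3 and 493 in the flasks and 1953, 2292 and 1812 in the tumors (1.58 ± 0.19, adjusted p = 2.7e-04, or 0.0182 in the fit over all 15 samples). Dtx1 and Maml2 rose too, by 2.24 ± 0.16 and 2.78 ± 0.49, Dtx1 losing its call in that fit (adjusted p = 0.0229). In all 8 of 19 tested members rose and none fell, against 14.4% and 2.29% of all genes tested. The targets best known as repressors of neuroendocrine genes did not pass: Hes1 was at 631, 584 and 600.3 in the flasks and 771, 696 and 629 in the tumors and Hey1 at 931, 1025 and 1074 in the flasks and 646, 575 and 656 in the tumors (-0.69 ± 0.10, adjusted p = 8.9e-04), both named after their values were seen. Hes6, which counters Hes1, was at 7102, 7429 and 6406 in the flasks and 13602, 14049.9 and 13217 in the tumors, and its difference of 0.97 ± 0.09 was just under the 2-fold limit. Jag2 and Mfng, high in both groups, were at 10488, 10106 and 9781 in the flasks and 10709.9, 10737 and 10971 in the tumors and at 3758, 3782 and 2818 in the flasks and 3909, 4025 and 3686 in the tumors. Pericyte and endothelial markers moved with Notch3, Heyl and Dll4, and their part in those rises was not tested.

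**Figure D3:**
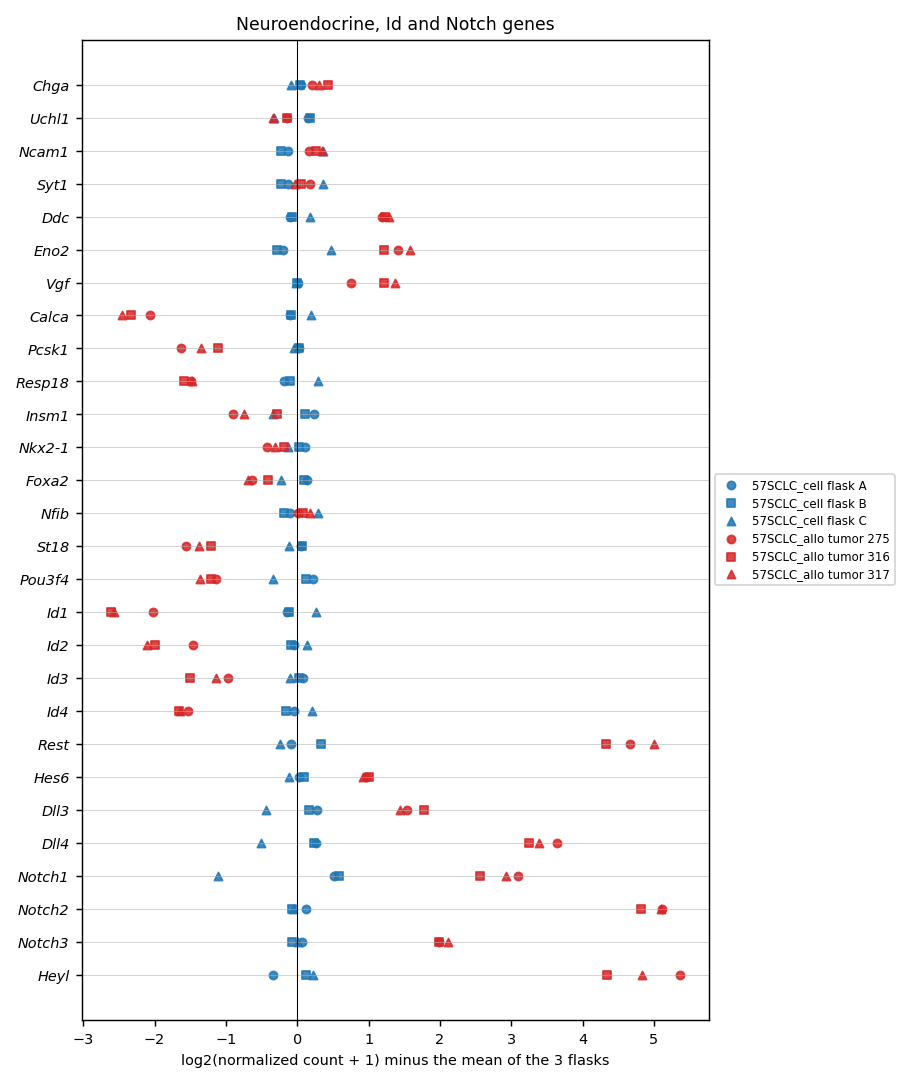
Neuroendocrine granule genes, transcription factors, Id genes and Notch genes in each sample, as log2(normalized count + 1) minus the mean of the 3 flasks (x axis), flasks in blue and tumors in red. Chga, Uchl1, Ncam1, Syt1 and Nfib lie near 0 in both groups, Calca, Pcsk1, Resp18 and the 4 Id genes lie below it in every tumor, and the tumors lie above 4 for Rest, Notch2 and Heyl.

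Proliferation genes were expressed in both groups. All 30 tested members had a negative log2 fold change, with a median of -0.34, and 1 was called lower, Rrm2, a subunit of ribonucleotide reductase, at 5033, 4989 and 3932 in the flasks and 2238, 1985 and 2129 in the tumors (-1.13 ± 0.11, adjusted p = 9.5e-05). Mki67 was at 23704, 27249 and 26812 in the flasks and 14542, 22729 and 20107 in the tumors, Top2a at 10282, 10428 and 10958 in the flasks and 8371, 8919.8 and 8501 in the tumors and Mcm2 at 8801, 8951 and 7117 in the flasks and 7323, 7595 and 6734 in the tumors, differences within 2-fold that missed the threshold. With upper-quartile scaling the median of all genes moved to -0.12, and these medians shift with it. None of the 6 CDK inhibitors was called, Cdkn1a at 3509, 3402 and 3339.9 in the flasks and 5254, 5682 and 5276 in the tumors (0.66 ± 0.075, adjusted p = 2.0e-04) and Cdkn2a at 3210.2, 3152 and 3100.3 in the flasks and 3378, 3402 and 3386 in the tumors. None of 22 nuclear respiratory chain genes and none of 10 mitochondrially encoded genes tested was called. The highest mt-Co1 level, 294947, 164641 and 178104 in the tumors against 217824, 215710 and 259554 in the flasks, was in tumor 275.

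Mesenchymal genes rose, and the epithelial junction genes with high counts were not called. Cdh1, E-cadherin, was at 21931, 21734 and 17754 in the flasks and 18679, 20444 and 17662 in the tumors (-0.11 ± 0.12, adjusted p = 0.51), Krt18 at 6229.6, 6504 and 5375 in the flasks and 6042, 6309 and 5907 in the tumors, Cldn3 at 10961, 10797 and 8228 in the flasks and 9408, 9248 and 7394 in the tumors and Dsp, desmoplakin, at 31802, 33248 and 23711 in the flasks and 18978, 20795 and 18371 in the tumors, and none was called. Vim, vimentin, went from 10.4, 16.3 and 18.8 to 10686, 6043 and 11102 (9.15 ± 0.28, adjusted p = 3.1e-07), Zeb1 from 8.18, 1.81 and 7.29 to 431, 394 and 587, Snai2 from 3.27, 4.22 and 4.17 to 127, 59.5 and 129 and Zeb2 from 1 flask read to 1836, 1046 and 1768. These mesenchymal genes are also expressed by fibroblasts, vessels and leukocytes, whose markers rose in the same tumors, and the cells that held them were not determined. In all 10 of 24 tested members rose and none fell, and 2 of the 24 were at or under 3 reads in every flask. Cldn4, an epithelial claudin, was among them at 121, 105 and 40.6 in the flasks and 287, 377 and 229 in the tumors (1.85 ± 0.40, adjusted p = 0.0071, or 0.0951 over all 15 samples).

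Genes that respond to low oxygen were higher in the tumors, and flask C lay between the other flasks and the tumors for many of them. Vegfa, the angiogenic ligand, was at 2940.2, 2884 and 6629 in the flasks and 12874, 14281 and 14811 in the tumors (1.87 ± 0.29 (adjusted p = 0.0013), or 2.26 (adjusted p = 1.8e-06) without flask C), and was named after its values were seen. Bnip3, a mitophagy receptor, was at 27.3, 33.8 and 157 in the flasks and 706, 1049 and 1109 in the tumors (4.12 ± 0.58 (adjusted p = 7.6e-04), 4.90 (adjusted p = 4.6e-06) without flask C), and Bhlhe40, a transcriptional repressor, at 43.1, 35 and 352 in the flasks and 2506, 2281 and 2726 in the tumors (4.92 ± 0.75 (adjusted p = 0.0012), 5.97 (adjusted p = 4.9e-07) without flask C). P4ha1, a collagen prolyl hydroxylase, was at 349.7, 358 and 1712 in the flasks and 4204, 4119 and 4067 in the tumors (2.78 ± 0.54, adjusted p = 0.0042) and Ndrg1 at 45.3, 47.6 and 158 in the flasks and 661, 862 and 903 in the tumors (3.50 ± 0.44, adjusted p = 3.8e-04). In all 5 flask C was above A and B and below every tumor. On the recovered reads edgeR gave P4ha1 an adjusted p of 0.0155, past the limit, so that call depends on the test. Angptl4, an inhibitor of lipoprotein lipase, showed no such gap, at 16.9, 9.65 and 12.5 in the flasks and 639, 770.1 and 1054 in the tumors (5.88 ± 0.27, adjusted p = 1.2e-06). Lox, lysyl oxidase, and Plod2, lysyl hydroxylase, both enzymes that crosslink collagen, were at 4.36, 9.65 and 1.56 in the flasks and 3756, 2646 and 4062 in the tumors and at 1.09, 0.603 and 1.56 in the flasks and 302, 214 and 315 in the tumors, and fibroblasts make both. Of 25 tested hypoxia response genes 18 rose and none fell, with a median of 1.84, and without flask C 19 rose, with a median of 2.26. Without tumor 275, 316 or 317 the number was 9, 8 or 7, and with a filter of 2 samples it was 11 without tumor 316 and 10 without 317. Of the 21 members that reached 100 normalized counts in a flask, 10 were over 2-fold higher in flask C than the mean of A and B, the median ratio being 1.82. Stc2 and Ddit4 overlapped between groups, at 2196, 2237 and 5139 in the flasks and 3512, 4799 and 4176 in the tumors and 7307, 7393 and 10826 in the flasks and 8314, 10965 and 9014 in the tumors, flask C being the highest or the second highest sample. Egln1, a prolyl hydroxylase of the oxygen sensor, was at 3018, 2874 and 3738 in the flasks and 5444, 5949.8 and 6104 in the tumors (0.87 ± 0.11, adjusted p = 4.5e-04), just under the 2-fold limit.

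Promoters of 3 genes are printed because these called hypoxia genes hold 2 or more matches, on either strand, of ACGTG, the core of the hypoxia response element, within the 250 bases before the RefSeq start. Capitals mark the matches. The palindrome CACGTG, an E-box, holds the letters on both strands, and this is the case in Bnip3 and Pfkfb3.
Bnip3 (chr7:138511236-138511485, minus strand): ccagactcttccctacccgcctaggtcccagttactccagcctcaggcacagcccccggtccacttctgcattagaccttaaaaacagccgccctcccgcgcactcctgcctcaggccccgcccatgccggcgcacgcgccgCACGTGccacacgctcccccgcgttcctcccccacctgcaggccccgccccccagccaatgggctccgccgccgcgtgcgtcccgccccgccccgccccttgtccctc
Ankrd37 (chr8:46452888-46453137, minus strand): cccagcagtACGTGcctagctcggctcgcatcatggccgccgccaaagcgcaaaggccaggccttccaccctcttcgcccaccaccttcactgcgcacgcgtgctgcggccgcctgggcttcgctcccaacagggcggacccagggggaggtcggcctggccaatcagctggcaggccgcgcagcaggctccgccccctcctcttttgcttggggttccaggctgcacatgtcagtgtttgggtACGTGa
Pfkfb3 (chr2:11506902-11507151, minus strand): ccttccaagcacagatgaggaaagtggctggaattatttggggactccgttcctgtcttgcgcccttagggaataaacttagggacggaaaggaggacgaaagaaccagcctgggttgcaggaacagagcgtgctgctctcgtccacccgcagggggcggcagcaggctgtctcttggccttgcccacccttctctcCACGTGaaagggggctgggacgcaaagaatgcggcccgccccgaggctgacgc
Ankrd37, an ankyrin repeat gene, was at 73.1, 73 and 175 in the flasks and 539, 704 and 623 in the tumors, and Pfkfb3, which makes the activator of phosphofructokinase, at 298, 314 and 1183 in the flasks and 2403, 2238 and 2672 in the tumors. Of 19 tested list members with a window 15 (78.9%) held a match, 11 of the 12 that rose and 4 of the 7 others, against 18.5% of the 27025 genes with a window. The list consists of known hypoxia targets, and nothing on binding was measured.

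Glycolysis genes followed the same pattern across samples. Ldha, lactate dehydrogenase A, was at 3015, 3140.4 and 11893 in the flasks and 19356, 17825 and 18695 in the tumors, and Slc16a3, the lactate exporter MCT4, at 1516, 1584 and 8267 in the flasks and 15478, 13522 and 12989.8 in the tumors. With flask C their log2 fold changes of 1.95 ± 0.47 and 2.37 ± 0.58 missed the threshold (adjusted p = 0.011 and 0.012), and without it they were 2.60 (adjusted p = 9.4e-07) and 3.17 (adjusted p = 1.0e-06). Hk2, the inducible hexokinase, was at 28.9, 18.1 and 317 in the flasks and 1192, 1083 and 1400.3 in the tumors (4.43 ± 0.90, adjusted p = 0.0053), whereas Hk1, the constitutive one, was at 5015, 4809 and 4638 in the flasks and 4802, 5078 and 4898 in the tumors (0.031 ± 0.075, adjusted p = 0.77). Hk2 was not called on the recovered reads (adjusted p = 0.0224 in edgeR and 0.0132 in DESeq2). Pgk1 was at 614, 644 and 1626 in the flasks and 3282, 2936 and 3234 in the tumors, Aldoa at 3353, 3564 and 6178 in the flasks and 12919, 11407 and 13272 in the tumors and Pkm, pyruvate kinase, at 14007, 14367 and 24072 in the flasks and 39304, 37580.1 and 38967 in the tumors, each with flask C between the groups. Gpi1, glucose phosphate isomerase, rose from 3111, 3204 and 4700.4 to 12869, 16758 and 17911 (2.12 ± 0.18, adjusted p = 4.3e-05), and Eno1 from 481, 487 and 546 to 1783, 1893 and 1824 (1.86 ± 0.088, adjusted p = 1.6e-06), with little difference among flasks. Slc2a3, a glucose transporter, was at 7.64, 13.3 and 13.5 in the flasks and 632, 299 and 506 in the tumors (5.24 ± 0.33, adjusted p = 7.2e-06). Of 19 tested members 9 rose and none fell (13 without flask C, 5 without any 1 tumor under either filter), and the summed level was 41954, 42903 and 81205 in the flasks and 130063 to 134456 in the tumors.

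**Figure D4:**
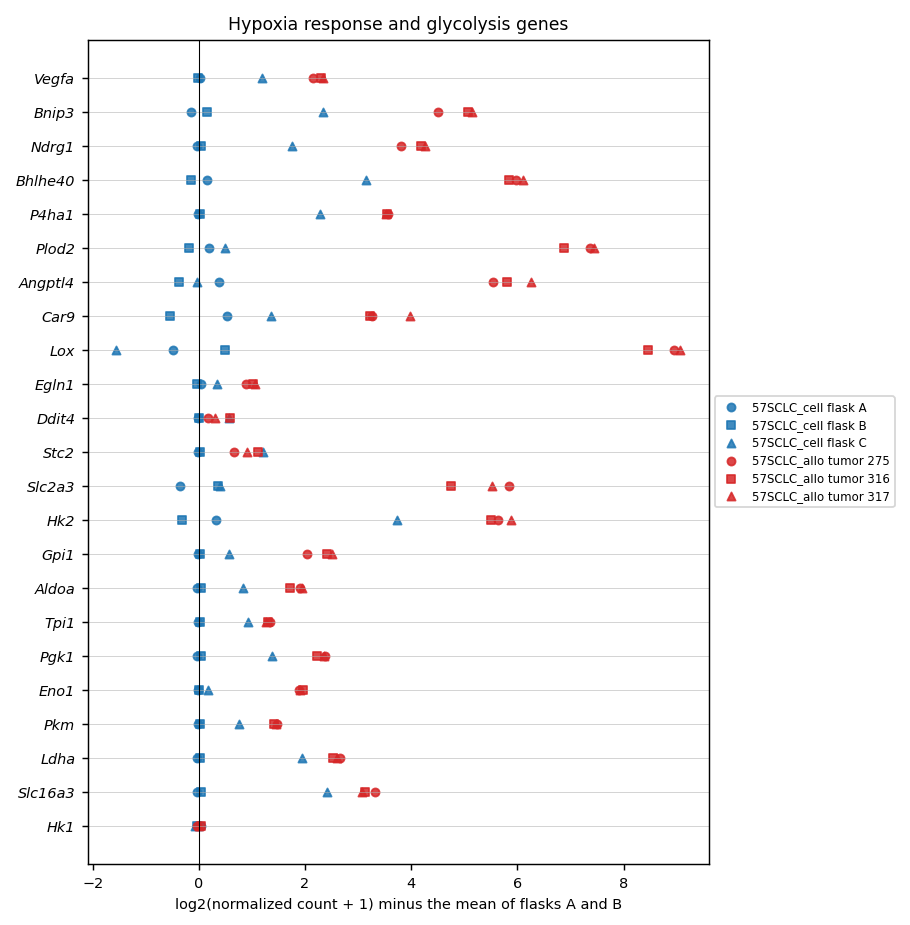
Hypoxia response and glycolysis genes in each sample, as log2(normalized count + 1) minus the mean of flasks A and B (x axis), flasks in blue and tumors in red. The blue triangle of flask C lies between the flasks A and B and the red symbols for Bnip3, Ndrg1, Bhlhe40, P4ha1, Hk2, Pgk1, Ldha and Slc16a3, and near 0 for Angptl4, Eno1 and Hk1.

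Genes tied to components of the medium were examined next, and whether leaving the medium changed them was not tested. Hydrocortisone is a glucocorticoid. Zbtb16, a strongly induced glucocorticoid target, was at 3543, 3411 and 6920.1 in the flasks and 752, 1154 and 824 in the tumors (-2.29 ± 0.28, adjusted p = 3.1e-04) and Klf9 at 2552, 2422 and 3914 in the flasks and 1451, 1441 and 1341 in the tumors (-1.04 ± 0.17 (adjusted p = 0.0018), -0.82 (adjusted p = 8.9e-05) without flask C, under the 2-fold limit). Fkbp5, the chaperone of the receptor, was at 5350.2, 5275 and 5682 in the flasks and 2959, 2885 and 3069.6 in the tumors, below every flask in every tumor, with a difference of -0.87 ± 0.074 (adjusted p = 3.8e-05). Nr3c1, the receptor itself, was at 1483, 1513 and 1765 in the flasks and 2643, 3331 and 3298 in the tumors (0.96 ± 0.12, adjusted p = 3.2e-04). Mt2, a metallothionein, rose (273, 304 and 109 in the flasks and 551, 600.2 and 659 in the tumors). That call was lost in edgeR (adjusted p = 0.0126), with a pseudocount of 0.1, without the filter and with upper-quartile or library-total scaling. Of 13 tested members 2 fell and 1, Mt2, rose, whereas without flask C 1 fell and 2 rose. Among all genes tested 2.29% fell and 14.4% rose. EGF acts through the ERK pathway. Of 19 tested EGF and ERK feedback genes 13 rose and none fell, 3 of them at or under 3 reads in every flask, with a median of 2.94. Dusp6 and Dusp4, phosphatases of ERK, were at 131, 152 and 135 in the flasks and 1022, 1119.8 and 1357 in the tumors and at 100.4, 101 and 59.4 in the flasks and 814, 692 and 949.8 in the tumors (3.05 ± 0.14 (adjusted p = 1.2e-06) and 3.25 ± 0.23 (adjusted p = 1.3e-05)). Spred1 and Spry4, inhibitors of the pathway, were at 1.64, 1.2 and 5.73 in the flasks and 857, 565 and 862 in the tumors and, with no flask read, at 242, 156 and 249.7. Etv5, an ETS target, was at 10.4, 9.65 and 12.5 in the flasks and 196, 144 and 214 in the tumors (3.96 ± 0.25, adjusted p = 6.1e-06) and Egfr at 7.09, 11.5 and 6.77 in the flasks and 316, 436 and 508 in the tumors (5.49 ± 0.28, adjusted p = 2.2e-06). Spry1 and Spry2, already in the flasks, were at 422, 419 and 419 in the flasks and 625, 793 and 727 in the tumors and at 248, 221 and 205 in the flasks and 227, 226 and 256 in the tumors, and were not called. Fibroblast, vessel and macrophage markers rose in the same tumors. The part of host cells in the rises of ERK feedback genes, and of the immediate early genes below, was not tested. Of 23 immediate early genes 11 rose (10 without flask C) and none fell. Egr1 was at 301, 266 and 349 in the flasks and 2229, 1539 and 1824 in the tumors (2.60 ± 0.16, adjusted p = 5.3e-06, or 0.0163 over all 15 samples), Fos at 75.3, 65.7 and 77.6 in the flasks and 754, 364 and 575 in the tumors (2.88 ± 0.26, adjusted p = 4.9e-05), Junb at 913, 910.1 and 835 in the flasks and 3835, 2431 and 3231 in the tumors (1.81 ± 0.16, adjusted p = 3.9e-05) and Ier3 at 38.7, 31.4 and 48.5 in the flasks and 962, 432 and 552 in the tumors (3.94 ± 0.30, adjusted p = 2.2e-05), while Jun and Fosl2 were at 6241, 6039.5 and 5895 in the flasks and 6487, 9635 and 7039 in the tumors and at 4045, 3956 and 3055 in the flasks and 3263, 3263 and 3485 in the tumors.

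Few lipid and amino acid synthesis genes were called. Of 25 tested genes of cholesterol synthesis and uptake 23 had a negative log2 fold change, with a median of -0.62 (-0.38 without flask C), 1 was called lower and none higher. Sqle, squalene epoxidase, was at 5028, 4944 and 4838 in the flasks and 3411, 3475 and 3226 in the tumors (-0.55 ± 0.073, adjusted p = 5.1e-04). Thrsp, a regulator of fatty acid synthesis, was at 2422, 2373 and 2994 in the flasks and 849.8, 760.2 and 752 in the tumors (-1.71 ± 0.11, adjusted p = 7.7e-06), the only one of 15 fatty acid genes called, and Fasn was at 9829.8, 9757 and 10929 in the flasks and 7126, 5507 and 5758 in the tumors (-0.74 ± 0.12, adjusted p = 0.0013). Scd2 was at 17971, 17228 and 46492 in the flasks and 27899.7, 18301 and 19643 in the tumors, with flask C the highest sample. The median of the fatty acid list was -0.35 with flask C and -0.08 without it, and its summed level was 58789, 58026 and 104339 in the flasks and 52605 to 67728 in the tumors. Of 27 tested serine synthesis and ATF4 genes Shmt1, a serine hydroxymethyltransferase, was at 3610.1, 3618 and 3529.6 in the flasks and 1501, 1166 and 1211 in the tumors (-1.48 ± 0.11, adjusted p = 1.3e-05), Cbs, of cysteine synthesis, at 202, 242 and 262 in the flasks and 110.1, 130.2 and 77.2 in the tumors (-1.17 ± 0.22, adjusted p = 0.0038, or 0.0715 over all 15 samples), and Atf3, a stress factor, at 383, 342 and 647 in the flasks and 962, 1267 and 985 in the tumors (1.27 ± 0.23, adjusted p = 0.0032, or 0.24 over all 15 samples). Psat1 and Atf4 were at 7447, 7639.6 and 8268 in the flasks and 4208, 5175 and 4472 in the tumors and at 10946, 11048 and 10865 in the flasks and 10066, 9180.2 and 9402 in the tumors. In the NRF2 antioxidant list Gclc, the catalytic subunit of glutathione synthesis, fell (3474, 3493 and 2336 in the flasks and 1324, 1363 and 1281 in the tumors, -1.20 ± 0.15, adjusted p = 4.1e-04), and Gpx3, the secreted glutathione peroxidase, and Gpx1 rose (510, 528 and 558 in the flasks and 4733, 3121 and 4402 in the tumors for the first, 2.92 ± 0.15, adjusted p = 2.3e-06). Without flask C 5 of its 13 tested members fell, among them Gstm1, a glutathione transferase named after its values were seen, at 1472, 1522 and 273 in the flasks and 170, 136 and 175 in the tumors, flask C being near the tumors. Hmox1, heme oxygenase, was at 723, 782 and 424 in the flasks and 1534, 1604 and 2628 in the tumors (1.58 ± 0.27, adjusted p = 0.0023) and Trf, transferrin, which the medium supplies as protein, at 4.91, 8.44 and 6.25 in the flasks and 941, 436 and 743 in the tumors (6.51 ± 0.32, adjusted p = 1.9e-06). Tfrc, its receptor, was at 9734, 9573 and 14382 in the flasks and 6703, 6089.9 and 5529.8 in the tumors (-0.86 ± 0.16, adjusted p = 0.004). Host cell markers rose in the same tumors, and their part in the rises of Hmox1 and Trf was not tested. No endoplasmic reticulum chaperone of 15 was called, Hspa5 being at 15557, 15386 and 16579 in the flasks and 19002, 14371 and 15244 in the tumors, and in the heat shock list Hspa1b rose (13.1, 12.1 and 6.77 in the flasks and 208, 102 and 96.5 in the tumors) with Hspa1a, and Hsph1 fell (3473, 3502 and 4032 in the flasks and 2369.9, 1573 and 1558 in the tumors).

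TGF-beta and BMP genes changed in both directions. Tgfb1 was at 205, 195 and 214 in the flasks and 1767, 1256 and 1985 in the tumors (3.0 ± 0.17, adjusted p = 3.5e-06) and its receptor Tgfbr2, nearly absent from flasks, at 3.27, 0.603 and 1.56 in the flasks and 2004, 1403 and 2006 in the tumors. The part of host cells, whose markers rose in the same tumors, was not tested for either gene. Inhbb, the activin B subunit, which the flasks expressed, was at 163, 185 and 146 in the flasks and 1451, 1475 and 1521 in the tumors (3.17 ± 0.12, adjusted p = 5.3e-07), a 3-sample range much narrower than the gap between groups. Bambi, a decoy receptor and BMP target, was at 2081, 2032 and 2184 in the flasks and 654, 689 and 514 in the tumors (-1.77 ± 0.12, adjusted p = 1.0e-05), the single member of 19 that fell, named after its values were seen, while 11 rose. In this list 2 of the 19 were at or under 3 reads in every flask. Smad9, a BMP-regulated Smad, was at 758, 704 and 903 in the flasks and 81.4, 63.7 and 82.8 in the tumors (-3.36 ± 0.16, adjusted p = 1.8e-06), and Bmp7 and Bmpr1a were at 1789, 1732 and 1458 in the flasks and 1561, 1404 and 1381 in the tumors and at 1992, 1941 and 2385 in the flasks and 1690, 1982 and 1801 in the tumors. Of 23 tested Wnt genes 9 rose (11 without flask C) and 2 fell, against 14.4% and 2.29% of all genes tested. Among the 23, 2 were at or under 3 reads in every flask. Wnt4 (chr4:137004373-137027037, plus strand) was at 969, 894 and 954 in the flasks and 124, 116 and 80.6 in the tumors (-3.14 ± 0.18, adjusted p = 3.5e-06), and Axin2, a feedback target of the canonical pathway, named after its values were seen, at 1305, 1385 and 856 in the flasks and 436, 351 and 439 in the tumors (-1.51 ± 0.19, adjusted p = 4.0e-04, or 0.0428 over all 15 samples). Nkd1, another feedback gene, was at 1914, 1917 and 1939 in the flasks and 2147, 2494 and 2246 in the tumors. The rises were led by receptors and secreted inhibitors that fibroblasts express, Sfrp2 (275, 379 and 433 in tumors), Sfrp1 (280.1, 283 and 306), Fzd1 (3.82, 6.03 and 5.21 in the flasks and 692, 334 and 533 in the tumors) and Fzd7 (3.82, 3.02 and 3.13 in the flasks and 306, 252 and 367 in the tumors).

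Axon guidance, channel and synapse genes were among those that separated the tumor state from culture in single members. Of 31 tested guidance genes 10 rose and 3 fell (15 and 3 without flask C), against 14.4% and 2.29% of all genes tested. Robo2 (chr16:73688727-75244270, minus strand), a receptor for Slit ligands, was at 728, 756 and 1622 in the flasks and 45.5, 8.49 and 3.4 in the tumors (-6.27 ± 0.77, adjusted p = 3.3e-04), while its relative Robo1 was at 7746, 7573 and 8419.7 in the flasks and 5745, 7154 and 6732 in the tumors (-0.28 ± 0.10, adjusted p = 0.063). The ligands Slit2 and Slit3 rose, at 3.82, 10.3 and 5.73 in the flasks and 141, 218 and 251 in the tumors and at 59.5, 51.3 and 88.1 in the flasks and 909.6, 783 and 1092 in the tumors. Nrp2, a semaphorin and VEGF-C coreceptor, was at 43.6, 44 and 87.5 in the flasks and 958, 772 and 1174 in the tumors and Plxnd1 at 202, 209.9 and 164 in the flasks and 1740.3, 1544 and 1990.4 in the tumors. Vessel and fibroblast markers rose in the same tumors, and their part in the rises of Slit2, Slit3, Nrp2 and Plxnd1 was not tested. Of 25 voltage-gated channel genes 6 rose and 2 fell, against the same shares of 14.4% and 2.29%. Kcnq3, a potassium channel, was at 14.7, 8.44 and 39.1 in the flasks and 723, 949.9 and 1140.5 in the tumors (5.67 ± 0.48, adjusted p = 3.4e-05), Cacna1g, a T-type calcium channel, at 52.9, 52.5 and 64.1 in the flasks and 608, 616 and 507 in the tumors (3.33 ± 0.16, adjusted p = 1.7e-06), and the sodium channel genes Scn1a and Scn3a at 86.2, 72.4 and 228 in the flasks and 14.4, 17 and 15.9 in the tumors and at 215, 210.5 and 583 in the flasks and 108, 41.1 and 74.9 in the tumors, with flask C the highest in both, and Scn1a was not called in the fit over all 15 samples (adjusted p = 0.0205). Cacna1a, a P/Q-type calcium channel, was at 9397, 9024 and 13995 in the flasks and 13968, 16383 and 17591 in the tumors and was not called. Of 14 synapse receptor genes 5 rose (3 without flask A, flask B or tumor 317) and 1 fell, against the same shares of 14.4% and 2.29%. Grm4 and Grin1, glutamate receptors, were at 52.9, 47.6 and 59.9 in the flasks and 268, 405 and 430.1 in the tumors and at 111, 97.7 and 67.2 in the flasks and 318, 335 and 361 in the tumors (2.73 ± 0.22 (adjusted p = 2.7e-05) and 1.90 ± 0.20 (adjusted p = 1.5e-04)), and Grin3a fell, at 184, 168 and 253 in the flasks and 67, 90.6 and 97.6 in the tumors (-1.23 ± 0.23, adjusted p = 0.0032).

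The largest falls among genes with at least 100 normalized counts in every flask were in genes of adhesion, nerve and development. Pgr15l, a G protein-coupled receptor, was at 211, 180.3 and 312 in the flasks and had no read in any tumor, at least 47.4-fold lower than the flasks at a floor of 3 reads per tumor. Slitrk1, a synaptic adhesion protein, was at 347, 342 and 299 in the flasks and 9.58, 0 and 10.2 in the tumors. Barx2, a homeobox gene, was at 2156, 2142 and 2482 in the flasks and 59.8, 42.5 and 74.9 in the tumors (-5.27 ± 0.20, adjusted p = 5.8e-07) and Ttr, transthyretin, a carrier of thyroid hormone and retinol, at 2115, 2208 and 3566 in the flasks and 67, 55.2 and 29.5 in the tumors (-5.71 ± 0.32, adjusted p = 3.4e-06). Kcnc4, a potassium channel, was at 261, 282 and 269.9 in the flasks and 4.79, 9.91 and 27.2 in the tumors and Chrm3, a muscarinic receptor, at 192, 169 and 569.5 in the flasks and 9.58, 14.2 and 10.2 in the tumors. Ncam2 was at 234, 229 and 749 in the flasks and 50.3, 9.91 and 29.5 in the tumors and Cntnap5a at 802, 773 and 1790.3 in the flasks and 83.8, 96.3 and 125 in the tumors, so both nerve adhesion genes had flask C as their highest sample. Igfbp5, an insulin-like growth factor binding protein, was at 153560, 146352 and 140787 in the flasks and 30016, 34266 and 30796 in the tumors (-2.21 ± 0.15, adjusted p = 8.5e-06). Among genes that stayed at or above 100 in every tumor, Pcdh9, a protocadherin, was at 1780.5, 1707 and 2304 in the flasks and 268, 266 and 313 in the tumors (-2.76 ± 0.14, adjusted p = 1.9e-06), Pkp1, a desmosomal plakophilin, at 703, 700.2 and 1364 in the flasks and 105, 150.1 and 149.8 in the tumors, Aldh1a1, a retinal dehydrogenase, at 1116, 1175 and 1856 in the flasks and 321, 183 and 238 in the tumors (-2.48 ± 0.25, adjusted p = 1.0e-04, or 0.0255 over all 15 samples), and Sox6, a developmental factor, at 677, 689 and 1318 in the flasks and 158, 125 and 185 in the tumors (-2.46 ± 0.27, adjusted p = 1.8e-04). Sv2b, a synaptic vesicle protein, was at 1629, 1655 and 2741 in the flasks and 235, 428 and 374 in the tumors and Col23a1, a transmembrane collagen, at 485, 475 and 993 in the flasks and 108, 106 and 165 in the tumors. For each of these the tumors lay below all flasks, flask C included, as they did for every gene called lower.

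The 10 largest rises among genes that the flasks already expressed at 100 or more are given next. Apoe, the lipid carrier that macrophages secrete, was at 604, 590.4 and 586 in the flasks and 47517, 20689 and 38963 in the tumors, the tumor mean being 60.2-fold the flask mean. Thbs1, thrombospondin-1, was at 416, 393 and 343 in the flasks and 6095, 8116 and 9983 in the tumors (4.36 ± 0.17, adjusted p = 6.5e-07), Fstl1 at 235, 226 and 575 in the flasks and 5575, 5062 and 6901 in the tumors, Nid1, a basement membrane linker, at 136, 133 and 190.2 in the flasks and 2786, 2094 and 2940.2 in the tumors, and Fbn1, fibrillin-1, at 194, 214 and 179 in the flasks and 2868, 2685 and 3429 in the tumors. Arg1, arginase, a gene of a macrophage state, was at 175, 158 and 131 in the flasks and 2119, 1206 and 2019 in the tumors (3.48 ± 0.22, adjusted p = 7.0e-06) and Lgals3bp, a secreted glycoprotein, at 193, 198 and 139 in the flasks and 2375, 1459 and 2278 in the tumors. Piezo2, a mechanosensitive ion channel also known from neuroendocrine cells, was at 212, 196 and 330.3 in the flasks and 3459, 3577 and 5606 in the tumors (4.09 ± 0.24, adjusted p = 4.6e-06), Adamtsl2, which binds fibrillin, at 118, 132 and 155 in the flasks and 1807, 2003 and 2138 in the tumors and Emp1, a membrane protein of epithelial and other cells, at 277, 262 and 475 in the flasks and 5274, 3758 and 5775 in the tumors. Meg3, an imprinted noncoding RNA, had no flask read and was at 2262, 2248 and 3779 in the tumors, at least 1655-fold higher.

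The 3 tumors differed among themselves mostly in blood and immune genes. In 32 tested genes the highest tumor was over 4 times the median of the 3 and at or above 100, and it was tumor 275 in 25 of them, 316 in 6 and 317 in 1. Immunoglobulin genes were among the 25, the one with the highest level, a gamma constant region gene, being at 148123, 1401 and 3622. Hbb-bs, a beta-globin gene, was at 1853, 268 and 203, Hbb-bt at 323, 31.1 and 25 and Jchain at 6372, 1213 and 894, each with tumor 275 the highest. H2-Eb1, a class II chain, was at 127, 890.4 and 72.6, high in tumor 316, whereas H2-Ab1 and Cd74 were lowest there. Kcnd2, a potassium channel named after its values were seen, was at 33.5, 629.9 and 23.8 and 13.6, 11.5 and 41.2 in the flasks. Tumor 275 also had the fewest reads of the 6 libraries.

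46LCNEC, an adherent line from a large cell neuroendocrine carcinoma of QKO mice after Cre under a CMV promoter, was sampled as 3 culture dishes (A, B and C) and 3 syngeneic tumors (312, 319 and 321), at another passage than 57SCLC, and its change from culture to tumor was compared with that of 57SCLC. The change differed between the lines in 1983 genes (10.8% of 18440 tested) that moved more upward and 1250 (6.78%) that moved more downward in 57SCLC, by the limma interaction term. Of 6 listed sex-linked genes, 4 were tested in 46LCNEC and all 4 rose there, with 4 interaction terms lower in 57SCLC. The sum of the list was at most 2.39 in any 57SCLC sample. The sex of the hosts is not given in the sources used here, and its part in the interaction terms was not tested. For collagen the flask level differed: Col1a1 was at 20720, 19769 and 22399 in cultured 46LCNEC and at 330665, 216112 and 122566 in its tumors, and the list of fibroblast markers had 18 of 26 members with a larger rise in 57SCLC and 2 with a smaller one. Ccn2 and Ccn1, matrix-associated growth regulators, were at 1958, 2119 and 2445 and 2365, 1016 and 1837 in 57SCLC tumors, with no read and at 6.55, 4.82 and 2.08 in the flasks, whereas in 46LCNEC they were at 12906, 13661 and 16801 and 44372, 32544 and 37651 in culture and at 3389, 2102 and 1049 and 5083, 5730 and 3089.8 in tumors. Lox went from 115447, 122588 and 125716 to 21249, 17330 and 12872 in 46LCNEC, the opposite direction to 57SCLC. Robo2 went from 2.81, 5.52 and 1.54 to 948, 229 and 847 in 46LCNEC and fell in 57SCLC. Igfbp5 likewise went from 4759.7, 4554 and 3157 to 106127, 152172 and 182373 there. Glycolysis genes had 12 of 19 interaction terms higher and none lower in 57SCLC, Ldha being at 19778, 20619.7 and 22699 in cultured 46LCNEC and at 11411, 13610.3 and 9602 in its tumors, and the ERK feedback list had 15 of 20 higher and 1 lower. Dusp6 was at 2964, 2800 and 2777 and 2808, 3674 and 3542 in 46LCNEC. Host markers moved in both lines, C1qc being at 10277, 7671 and 16619 in the 46LCNEC tumors. In the Id genes, Id1 was at 3273, 3029.6 and 2848 in cultured 46LCNEC and at 935, 1184 and 1377 in its tumors, and its interaction term of -1.0 ± 0.26 (adjusted p = 0.0099) was just under the 2-fold limit. Id2, at 624, 819 and 1007 in culture and 412, 850.4 and 1069 in tumors of 46LCNEC, moved more downward in 57SCLC (-1.70 ± 0.43, adjusted p = 0.0087), and Id4, at 635, 514 and 451 and 25.2, 7.37 and 17.7, fell more in 46LCNEC (3.44 ± 0.45, adjusted p = 1.2e-04), while Id3 differed by 0.26 ± 0.22 (adjusted p = 0.37).

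**Figure D5:**
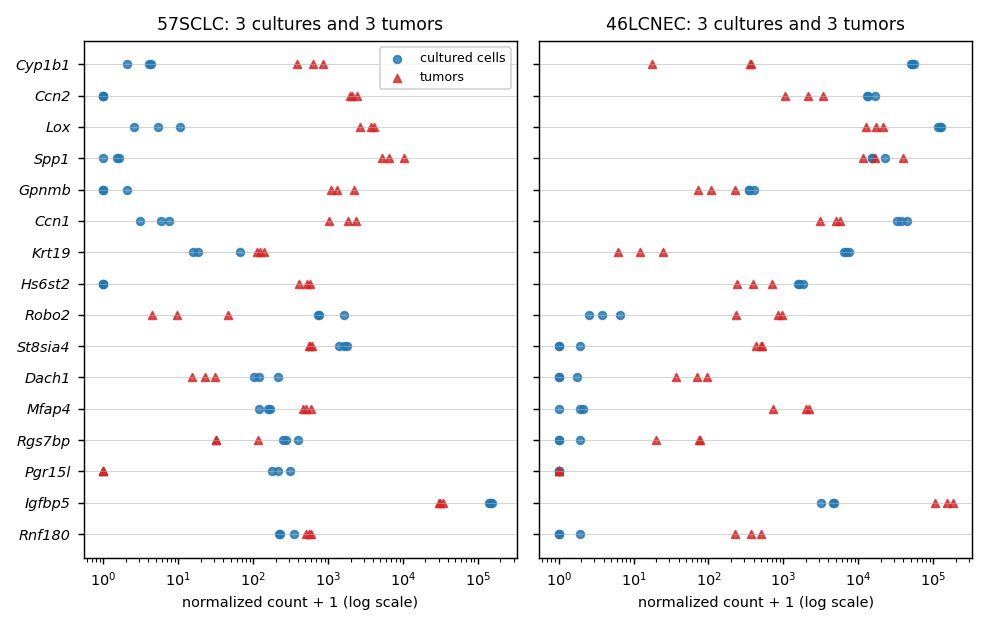
Normalized count plus 1 (log x axis) of 16 genes, the 8 with the largest interaction terms in each direction among those called in both tests, in 57SCLC (left) and 46LCNEC (right). Blue circles are cultured cells and red triangles tumors. Cyp1b1, Ccn2, Lox, Gpnmb, Ccn1, Krt19 and Hs6st2 are higher in tumors on the left and lower in tumors on the right, and Robo2, St8sia4, Dach1, Rgs7bp and Igfbp5 show the reverse.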

How the data were processed

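Poly-A RNA from 15 mouse samples was sequenced on a NovaSeq in paired reads. Per the study's methods, the authors used Rbowtie2 and GRCm39 for alignment, featureCounts with GENCODE genes for counting and DESeq2 for scaling. Strand and multi-mapping settings and tool versions are not given in the sources used here. The deposited signal is a table of such normalized counts for 55359 genes. Dividing each column by its smallest non-zero value gave whole reads for 100% of values within 0.01 of a whole number.

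The 3 tumors and 3 flasks of 57SCLC were compared with limma 3.58.1 in R 4.3.3 (variance trend with mean level, Benjamini-Hochberg adjustment) on log2(normalized count + 1), which understates the change of low genes. Genes had to reach 10 normalized counts in 3 or more of the 6 samples, and a call needed an adjusted p of at most 0.01 and a difference of at least 1 on the log2 scale. The line interaction used the same model over 12 samples. On the recovered reads edgeR 4.0.16, with its quasi-likelihood test and TMM, called 2415 genes higher and 374 lower, and DESeq2 1.42.0 called 2522 and 448. The fits were tested on simulated data. A level of 3 reads per library served as the floor for folds against 0, and such floors cover counting error only.

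The comparison and the 49 gene lists were chosen with earlier results of these data known. Genes are named by a rule: per list up to 8 called members by size of change, up to 4 uncalled members by level and the defining marker; beyond the lists, the largest rises and falls among genes at 100 or more normalized counts in the group concerned; the deleted genes; and the 8 largest interaction terms in each direction. The text names 19 other genes, chosen after their values were seen, of which Pecam1, Mrc1, Isg15, Pfkfb3, Ankrd37, Dusp6, B2m, Hif1a and Krt5 are not marked so above. Coordinates are GRCm39, from a GENCODE annotation that held 98.9% of the gene identifiers, and promoter windows are RefSeq sequences. Some genes that the rule covers are not reported here.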

Additional observations from a re-analysis of the deposited data

Results flagged for a closer look

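The change from culture to tumor differed between 57SCLC and 46LCNEC for 16 genes given here, the 8 largest in each direction by the rule for named genes. Each value is the log2 change in 57SCLC minus that in 46LCNEC with its standard error, from the limma interaction term over 3 cultures and 3 tumors of each line. They were picked for their size. Where all samples of a group had no read, as for Ccn2, Hs6st2 and Pgr15l, the fitted value depends on the pseudocount.

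Of the 8 that moved more upward in 57SCLC, each was lower in the 57SCLC flasks than in cultured 46LCNEC. Cyp1b1, a cytochrome P450 of steroid and xenobiotic metabolism, was at 3.27, 3.02 and 1.04 in the flasks and 852, 386 and 635 in the tumors of 57SCLC, and at 55469, 51318 and 51702 in culture and 358, 16.8 and 369 in tumors of 46LCNEC, a difference of 16.14 ± 1.27 (adjusted p = 2.0e-06). The differences for Ccn2, Ccn1 and Lox, whose levels are given above, were 13.96 ± 0.44 (adjusted p = 3.4e-09), 11.40 ± 0.51 (adjusted p = 2.7e-08) and 12.20 ± 0.55 (adjusted p = 2.8e-08). Spp1 was at 15062, 22655 and 15313 in the 46LCNEC dishes and 16669, 39437 and 11493 in its tumors, with a difference of 12.17 ± 0.56 (adjusted p = 3.1e-08). Gpnmb, a glycoprotein of macrophages and melanocytes, was at 0, 0 and 1.04 in the flasks and 1099, 1307 and 2205 in the tumors of 57SCLC and at 342, 343 and 407 in culture and 71.5, 107 and 222 in tumors of 46LCNEC (11.77 ± 0.60, adjusted p = 6.2e-08). Krt19, a simple epithelial keratin, was at 14.7, 17.5 and 65.1 in the flasks and 122, 112 and 137 in the tumors of 57SCLC and at 6425, 7443 and 6839 in culture and 23.8, 5.26 and 11.1 in tumors of 46LCNEC (11.34 ± 0.75, adjusted p = 5.1e-07), so its difference came mostly from 46LCNEC. Hs6st2, a heparan sulfate sulfotransferase, was at 0, 0 and 0 in the flasks and 577, 405 and 515 in the tumors of 57SCLC and at 1635, 1547 and 1813 in culture and 239.7, 396 and 712 in tumors of 46LCNEC (10.98 ± 0.45, adjusted p = 1.2e-08).

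Of the 8 that moved more downward in 57SCLC, Robo2 and Igfbp5, described above, differed by -13.43 ± 1.12 (adjusted p = 3.1e-06) and -7.34 ± 0.28 (adjusted p = 7.6e-09). St8sia4, a polysialyltransferase that modifies NCAM, was at 1799.6, 1638 and 1393 in the flasks and 567, 558 and 606 in the tumors of 57SCLC and at 0.938, 0 and 0 in culture and 511, 435 and 508 in tumors of 46LCNEC (-10.07 ± 0.34, adjusted p = 4.5e-09). Dach1, a transcriptional repressor of development, was at 118, 101 and 216 in the flasks and 14.4, 29.7 and 21.6 in the tumors of 57SCLC and at 0, 0 and 0.769 in culture and 70.2, 35.8 and 95.1 in tumors of 46LCNEC (-8.36 ± 0.64, adjusted p = 1.6e-06). Rgs7bp, which anchors an RGS protein of neurons, was at 251, 274 and 395 in the flasks and 31.1, 31.1 and 115 in the tumors of 57SCLC and at 0.938, 0 and 0 in culture and 74.2, 76.8 and 18.8 in tumors of 46LCNEC (-7.91 ± 0.86, adjusted p = 3.0e-05). Mfap4, a microfibril protein, was at 159, 166 and 118 in the flasks and 515, 469 and 586 in the tumors of 57SCLC and at 0.938, 1.1 and 0 in culture and 719, 2015 and 2208 in tumors of 46LCNEC (-8.02 ± 0.58, adjusted p = 9.3e-07), and Rnf180, a ubiquitin ligase, at 225, 224 and 347 in the flasks and 584, 508 and 553 in the tumors of 57SCLC and at 0.938, 0 and 0 in culture and 368, 227 and 508 in tumors of 46LCNEC (-7.06 ± 0.48, adjusted p = 6.5e-07), so both rose in 57SCLC and rose more in 46LCNEC. Pgr15l had no read in any 46LCNEC sample, so its difference of -7.84 ± 0.47 (adjusted p = 2.1e-07) is the fall in 57SCLC alone.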

How the results depend on the processing

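The numbers of genes that rose and fell stayed within 1.5 times their value in edgeR, in DESeq2, with a pseudocount of 0.1 or 5, without the filter, with upper-quartile or library-total scaling and in a fit over all 15 samples. Leaving out 1 sample at a time gave 954 to 2557 rises and 250 to 351 falls. The fewest rises came from leaving out a tumor (1080, 1179 and 954 without 275, 316 and 317), under a filter of 3 samples that 2 tumors alone cannot pass. The fewest falls were 250 without tumor 317, 268 without flask B and 272 without flask A. With a filter of 2 samples, chosen after seeing the data, the ranges were 2118 to 2641 and 285 to 374. The line interaction gave 1551 to 2334 genes higher and 979 to 1346 lower when 1 sample was left out. The tumors carry no number of the flasks, so pairing could only be tried with the culture letters of both lines. With these as a replicate block the interaction called 1703 and 1048 genes, and same-letter deviations correlated at 0.0603, -0.0730 and 0.00167 across genes, so the letters did not pair the cultures. A gene that an alternative did not test has no value there and is not counted as lost. This holds for genes that the flasks lack when a tumor was left out under the filter of 3 samples. Of 212 called genes in the text or under the rule for named genes, all kept their direction in every alternative that tested them. No value reversed, and 40 lost the call in at least 1 alternative. Of these, 15 lost it only when a sample was left out, among them Vegfa, Pgk1, Pkm, Hmox1 and Maml2 (any tumor), Notch1 and Bhlhe40 (tumor 275 or 317), Ncam2 (tumor 317), Rgs7bp (tumor 275 or 316), Grin3a (any tumor or flask A), Klf9 and Hsph1 (flask C, tumor 316 or tumor 317) and Foxa1 (flask A or B). The fit over all 15 samples, which shares the spread of the other groups, lost Calca, Pcsk1, Resp18, Vgf, St18 (adjusted p = 0.183), Dll3 (0.0182), Dtx1 (0.0229), Cldn4 (0.0951), Egr1 (0.0163), Usp18 (0.0444), Axin2 (0.0428), Cbs (0.0715), Atf3 (0.24), Scn1a (0.0205), Pkp1 (0.0116), Aldh1a1 (0.0255) and Rnf180 (0.0168). In edgeR, P4ha1, Pfkfb3 (0.0153), Hk2, Mt2, Scn3a (0.0101), Hbb-bt (0.0126) and Krt19 (0.0242) were lost, and with upper-quartile scaling Vgf, Gpx1, Mt2 and Rnf180. A pseudocount of 0.1 lost Mt2, Scn3a and Krt19, leaving out the filter lost Mt2 and Krt19, and library-total scaling lost Mt2. The causes were not tested. Hes6, Ldha, Slc16a3, Nr3c1 and Gstm1, uncalled, were called in at least 1 alternative. The tumor libraries held fewer reads than the flasks, so a gene at 0 in a tumor is limited less tightly than one at 0 in a flask.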
